A study of Arabidopsis thaliana with 6 samples.

Results

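STZ and its relatives are plant zinc finger proteins of the C2H2 type, in which pairs of cysteine and histidine residues hold a zinc ion that shapes each DNA-binding finger. Of 5 listed genes (STZ, AT3G46080, AT2G28710, AT3G53600 and AT2G37430), 3 had a probe set that the array annotation names with that gene alone, out of 13350 genes named this way on the whole array. These were STZ (probe set 261648_at), AT2G28710 (263411_at) and AT3G53600 (251950_at), each with 1 named probe set. The genes were listed by name, but with earlier results of these data known. AT3G46080 and AT2G37430 are not analysed here.

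STZ, also called ZAT10, was named for raising salt tolerance when expressed in yeast. In Arabidopsis it is a transcriptional repressor with a short leucine-rich repression motif (the EAR motif) near its end, and its transcript accumulates within hours of cold, salt, drought, wounding or oxidative stress. Such repressors limit the expression of other stress genes, and the transcript of STZ is itself a common readout of an early stress response in roots and leaves.

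Roots of Arabidopsis thaliana of the Col-0 accession were compared with and without cadmium, a toxic heavy metal, to ask which transcripts differ after the exposure. Plants were 4 weeks old and grown in hydroponic culture at 28 °C with 16 h of light and 8 h of darkness. The control group (3 samples) had no cadmium and the cadmium group (3 samples) had 200 µM for 6 h, and no transgene or mutation is named for either. Each sample was hybridised to 1 Affymetrix ATH1 array, and values are MAS5 signals, a linear brightness that combines the probes of a set. In whole roots, fewer cells of a type and less RNA per cell cannot be told apart.

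The arrays of replicate 2 stood apart from the other 4. Their 2% trimmed mean signal was 216 and 227, against 500 on each array of replicates 1 and 3. Over 15909 tested probe sets the cadmium differences of replicates 1 and 3 correlated with r = 0.77, but those of replicate 2 correlated with replicates 1 and 3 at r = -0.68 and -0.63 (across probe sets, which are not independent replicates). The log2 ratio of 3′ to 5′ actin signal was 3.46 and 3.72 for the replicate 2 samples, above the range of 2.41 to 2.99 in the remaining 4. The ubiquitin ratio was 0.65, 1.05 and 0.86 in control samples 1, 2 and 3 and 1.03, 1.26 and 0.94 in cadmium samples 1, 2 and 3, higher with cadmium at each replicate number. Results are therefore given over all 6 arrays and within replicates 1 and 3. This split was chosen with the opposition of replicate 2 known. Intervals and p-values within replicates 1 and 3 are therefore given as a description, not as independent tests. Arrays are named by their labels, and no label or file used here settles whether the control and cadmium labels of replicate 2 are the right way round. If they were exchanged, each replicate 2 difference below would have the opposite sign. A difference in 1 replicate is between the 2 arrays with that number, and the labels do not say what these share beyond it. Of 18 root marker genes 2 were named in the array annotation. EXPA7 had signals of 127 to 752, and XTH26 lay below 62.0 on 3 of 3 control arrays (30% of all signals lie below that value). Of 14 shoot photosynthesis markers 3 were named, and their summed signal was 2096 and 2224 in control samples 1 and 3 and 2753 and 2957 in cadmium samples 1 and 3, with 344 (control) and 377 (cadmium) in replicate 2. The part of these measures in the results below was not tested.

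Within replicates 1 and 3, the transcript of STZ was lower on the cadmium arrays, by more than the spread between replicates. Its signal was 12514 and 11598 in control samples 1 and 3 but 1045 and 1601 in cadmium samples 1 and 3. In replicate 2 the control read 3653 and the cadmium sample 5248. So the 2 cadmium arrays of replicates 1 and 3 were low and the other 4 arrays high, and over all 6 arrays the groups overlapped. Set against the median of its own array, which removes the lower scaling of replicate 2, the log2 signal of STZ was 5.10, 4.38 and 4.96 on control arrays 1, 2 and 3 and 1.29, 4.998 and 1.96 on cadmium arrays 1, 2 and 3. On this scale the control array of replicate 2 stood close to the other controls, and the cadmium array of replicate 2 stood with the controls.

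In the limma fit within replicates 1 and 3, STZ fell 9.32-fold (log2 difference -3.22 ± 0.25 SE, 95% interval -3.86 to -2.58, adjusted p = 0.0121, 2 arrays a group), with both cadmium arrays below both control arrays. In this fit 4.53% of all tested probe sets passed an adjusted p of 0.05, and 3.24% passed as lower on cadmium. The number of probe sets past the threshold, 721, dropped to 142 and 146 when cadmium sample 1 or 3 was left out, and was 1266 when control sample 3 was. STZ was the 159th lowest of the 15909 differences. Over all 6 arrays its log2 difference was -1.97 ± 0.80 SE (unadjusted p = 0.0253, adjusted p = 1), and 0% of probe sets passed (84 had an unadjusted p under 0.05 in limma). Those 84 are far fewer than a threshold of 0.05 passes without any difference. The 6-array p-values are therefore not evidence that the groups were alike. With limma's array weights the 6-array difference was -3.25 and passed (adjusted p = 2.61e-05), as did 1560 of the 15909 probe sets. These weights are estimated from the same data and count arrays that depart from their group less. The weighted fit is therefore no equal comparison of 6 arrays, and its value lay near the -3.22 of replicates 1 and 3. Values with array weights, here and below, are given as a description.

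The difference of STZ in replicate 2 went the other way, at 0.52 on the log2 scale (1.44-fold higher on cadmium). Replicate 2 minus replicates 1 and 3 was 3.74 ± 0.43 SE in the limma interaction fit, which takes the single arrays of replicate 2 to vary like the others. This contrast was set with the opposition of replicate 2 known, so it is given as a description. Of all tested probe sets 8.93% passed its threshold, as did 2 of the 3 zinc finger genes, STZ and AT2G28710. The replicate 2 difference alone was smaller for STZ than for most probe sets that fell in replicates 1 and 3. Of the 516 probe sets past the threshold as lower there, the median difference in replicate 2 was 1.60 (10th to 90th percentile 0.33 to 3.45), and 70 (13.6%) had a smaller difference than STZ. Of the same 516, 30 were lower on cadmium in replicate 2 too.

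**Figure D1:**
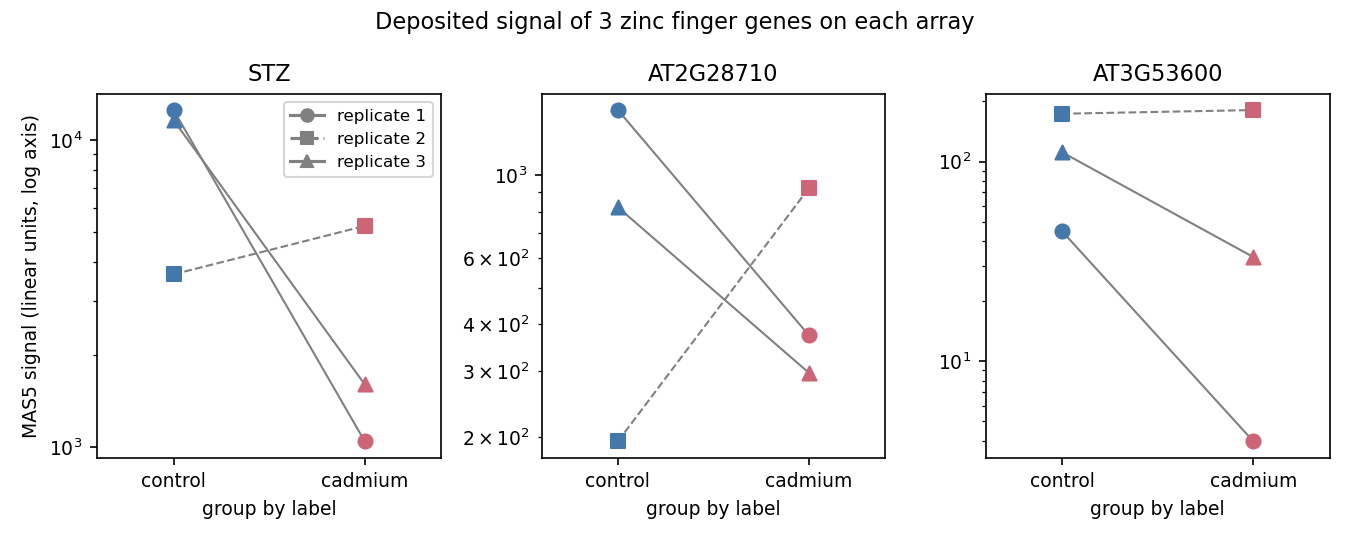
Deposited MAS5 signal (log axis) of STZ, AT2G28710 and AT3G53600 on the control and cadmium arrays. Each point is 1 array and each line joins the 2 arrays with the same replicate number, dashed for replicate 2. The solid lines go down in each panel, and the dashed line goes up for AT2G28710, by 2.25 (log2), and by 0.52 and 0.06 for STZ and AT3G53600.

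AT2G28710, a C2H2 zinc finger gene without a given name in the annotation, was lower with cadmium in replicates 1 and 3 and higher in replicate 2. The signal was 1494 and 822 in control samples 1 and 3 and 374 and 297 in cadmium samples 1 and 3. In replicate 2 the order was turned, with 195 for the control and 925 for the cadmium sample. Relative to the array median the log2 signals were 2.03, 0.15 and 1.14 on control arrays 1, 2 and 3 and -0.20, 2.49 and -0.47 on the cadmium arrays. Unlike STZ, it was therefore low on the control array of replicate 2, and its highest value on this scale was the cadmium array of replicate 2.

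Within replicates 1 and 3 the log2 difference of AT2G28710 was -1.73 ± 0.35 SE (95% interval -2.61 to -0.86), which is a 3.33-fold lower signal, and it missed the threshold in limma (adjusted p = 0.0621). Without control replicate 3 it passed, with a log2 difference of -2.17 (adjusted p = 0.0152), and over its 11 alternatives the adjusted p ran from 0.00218, with the replicate number as a block, to 0.259, without cadmium replicate 3. In replicate 2 the signal was 4.75-fold higher on cadmium (2.25 on the log2 scale), a difference above that of 97.7% of tested probe sets. Replicate 2 minus replicates 1 and 3 was 3.98 ± 0.60 SE, again as a description. Over all 6 arrays the difference was -0.41 ± 0.84 SE (95% interval -2.18 to 1.36, adjusted p = 1), with the sign set by which replicates are counted, since it was 0.39 without replicate 1 and 0.12 without replicate 3. It was also 0.23 without control replicate 1, whereas with array weights it was -1.60 (adjusted p = 0.0151).

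AT3G53600, also known as ZAT18, belongs to the same group of stress-responsive zinc finger genes and had signals under 62.0 on 3 of the 6 arrays. Its signal was 44.7 and 111 in control samples 1 and 3, against 3.98 and 33.3 in cadmium samples 1 and 3. In replicate 2 the control read 174 and the cadmium sample 181. Of the 4 arrays of replicates 1 and 3, 3 were under 62.0. The 2 arrays of replicate 2 held the highest signals even though they were scaled lower, and they differed from each other by 0.06 on the log2 scale. The gene passed the filter on mean signal (73.0) with a mean of 91.3 that rests on replicate 2.

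Within replicates 1 and 3 the log2 difference of AT3G53600 was -2.62 ± 1.46 SE (95% interval -6.30 to 1.07, adjusted p = 0.326 in limma). With signals under 62.0 raised to that value it was -0.42, so most of its size came from signals in the lowest range. Over all 6 arrays it was -1.72 ± 1.12 SE (adjusted p = 1), and with array weights it was -3.10 and passed (adjusted p = 0.0123). Replicate 2 minus replicates 1 and 3 was 2.68 ± 1.97 SE, with a 95% interval of -2.35 to 7.71 that holds 0.

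Side by side, the 3 genes differed in the same direction in replicates 1 and 3. The log2 differences of STZ, AT2G28710 and AT3G53600 were -3.58, -2.00 and -3.49 in replicate 1, and -2.86, -1.47 and -1.74 in replicate 3. The groups of these 4 arrays did not overlap, lower on cadmium, for 3 of 3 genes, as for 16.9% of all tested probe sets. All 3 had replicates 1 and 3 lower and replicate 2 higher on cadmium, as had 18.8% of all tested probe sets. Both counts include AT3G53600, which was under 62.0 on 3 of the 6 arrays and differed by only 0.06 (log2) in replicate 2. Past the threshold within replicates 1 and 3 were 1 gene as lower and 0 as higher, beside 3.24% and 1.29% of all tested probe sets. The median difference of the 3 was -2.62, the value of AT3G53600 itself, beside 0.22 over all tested probe sets. With signals under 62.0 raised to that value AT3G53600 was at -0.42, and the middle value of the 3 was then that of AT2G28710, -1.73.

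**Figure D2:**
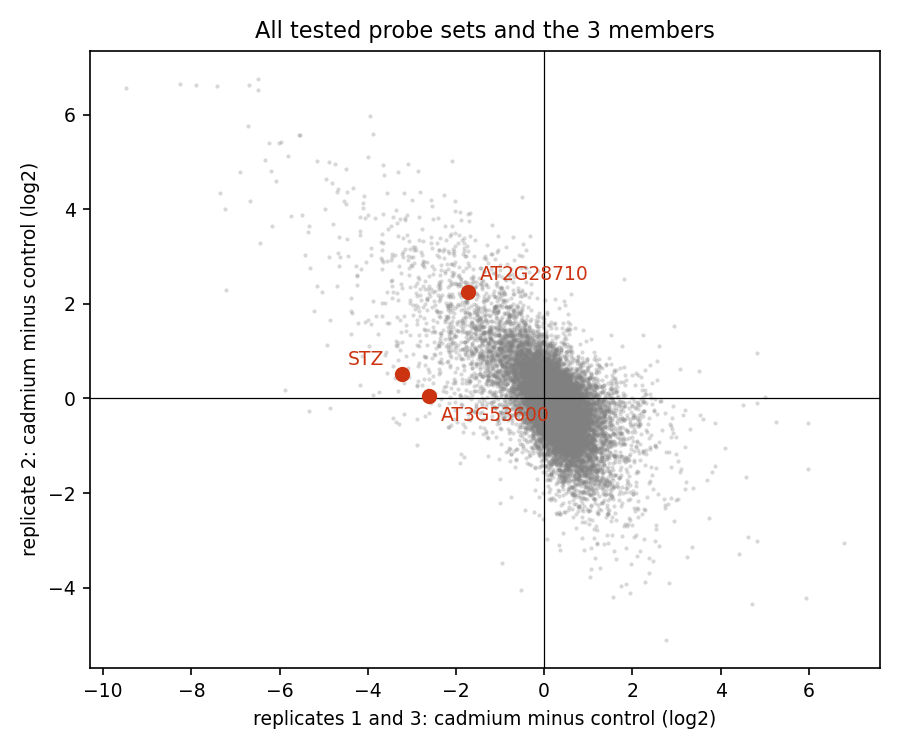
Cadmium minus control (log2) within replicates 1 and 3 on the horizontal axis and in replicate 2 on the vertical axis, with 1 grey point for each of 15909 probe sets and the 3 zinc finger genes in red. The cloud slopes down from left to right, and STZ, at -3.22 and 0.52, and AT3G53600, at -2.62 and 0.06, lie low at its left side while AT2G28710 lies at -1.73 and 2.25.

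The patterns of the 3 genes over the 6 arrays were alike but not identical. With each array centred on its median, the log2 signals of STZ correlated with those of AT2G28710 at r = 0.81 and of AT3G53600 at r = 0.80, and the latter pair at r = 0.51 (6 arrays each, as a description, since these arrays share scaling and any differences in RNA quality). By comparison, 6.45% of tested probe sets had a higher r with STZ than AT2G28710 had, and 7.20% a higher r than AT3G53600. The median r with STZ over all tested probe sets was -0.10.

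The 5 named genes most like STZ by this measure were AT1G32920 (r = 0.99), AT4G34150, AT3G56880, AR781 and AT2G18210, all with r of at least 0.99. They were picked for this pattern, so their values are a description. AT1G32920 had signals of 6478, 1864 and 5770 in control samples 1, 2 and 3 and 1112, 3161 and 1224 in cadmium samples 1, 2 and 3. AR781 had the widest range of the 5, with 7329, 1841 and 4042 in control samples 1, 2 and 3 and 387, 2658 and 540 in cadmium samples 1, 2 and 3. Each of the 5 was low on the cadmium arrays of replicates 1 and 3 and high, relative to the array median, on the other 4. In all, 423 tested probe sets had r of at least 0.9 with STZ.

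**Figure D3:**
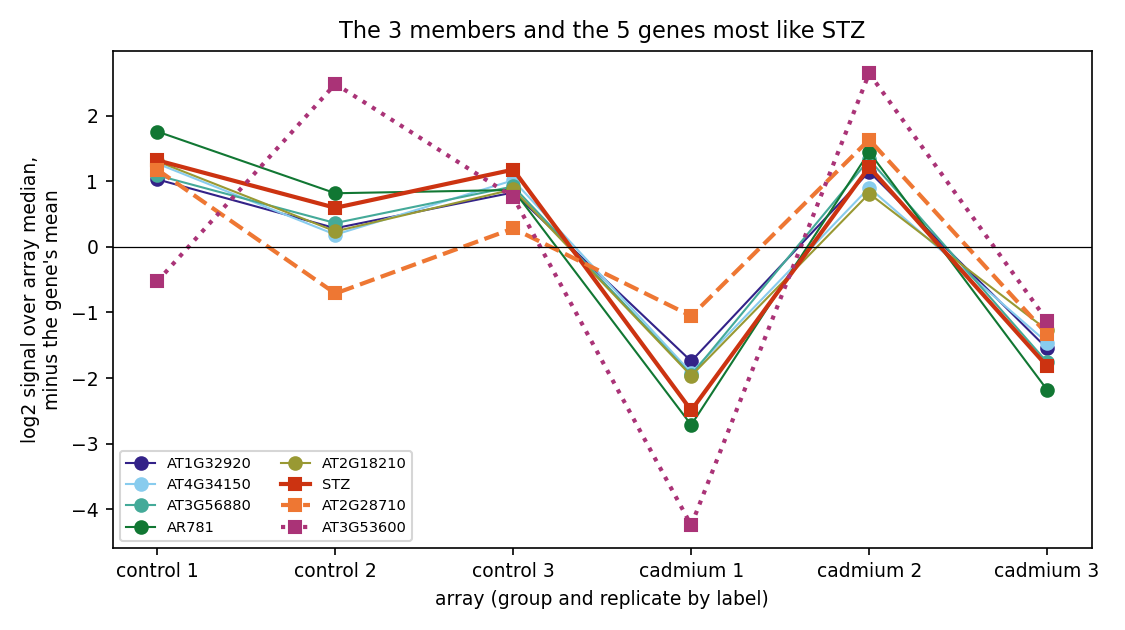
Log2 signal over the array median, minus each gene's own mean, on the 6 arrays for the 3 zinc finger genes (squares) and the 5 named genes most like STZ (circles). Lines only guide the eye between arrays. STZ and the 5 genes dip on cadmium arrays 1 and 3, AT2G28710 is also low on control array 2, and AT3G53600 is highest on both arrays of replicate 2.

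None of the further C2H2 genes tested passed the threshold in the comparison of the groups. Of 23 further C2H2 genes listed, 13 were named in the array annotation and 7 passed the filter. Within replicates 1 and 3, 0 of these 7 passed the threshold in limma (1.29% of all probe sets passed as higher and 3.24% as lower), and 1, AT2G28200, had an unadjusted p under 0.05. The median log2 difference of the 7 was -0.36, beside 0.22 over all tested probe sets. The other 6 named genes had mean signals of 26.1 to 68.7, under the filter, and were not tested.

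AT2G28200 had the widest difference of the 7. Its signal was 1212 and 927 in control samples 1 and 3, against 340 and 492 in cadmium samples 1 and 3. In replicate 2 it was 119 without and 311 with cadmium. Each control array of replicates 1 and 3 was above each of their cadmium arrays, and replicate 2 went the other way. The log2 difference was -1.38 ± 0.28 SE within replicates 1 and 3 (adjusted p = 0.0667 in limma), and -1.57 without control replicate 3, which passed (adjusted p = 0.0458). Over its 11 alternatives the adjusted p ran from 0.0106, with the replicate number as a block, to 0.312. Replicate 2 minus replicates 1 and 3 was 2.76.

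The remaining 6 tested relatives were at differences of -0.57 to 0.57 within replicates 1 and 3, with adjusted p of 0.314 to 0.816 in limma. AT4G16610 and AT5G56200, named after their values were seen, were the 2 with positive differences, at 0.57 ± 0.31 SE and 0.50 ± 0.30 SE. AT5G56200 had signals of 105, 94.2 and 124 on control arrays 1, 2 and 3 and 174, 132 and 150 on the cadmium arrays. On this deposited scale its groups did not overlap over all 6 arrays. Relative to the array median its log2 signals were -1.79, -0.90 and -1.58 on control arrays 1, 2 and 3. On the cadmium arrays they were -1.29, -0.32 and -1.45, so the groups overlapped. The separation on the deposited scale, higher on cadmium, held for 0.710% of all tested probe sets. AT5G56200 did not pass in limma (0.49 over all 6 arrays, adjusted p = 1).

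**Figure D4:**
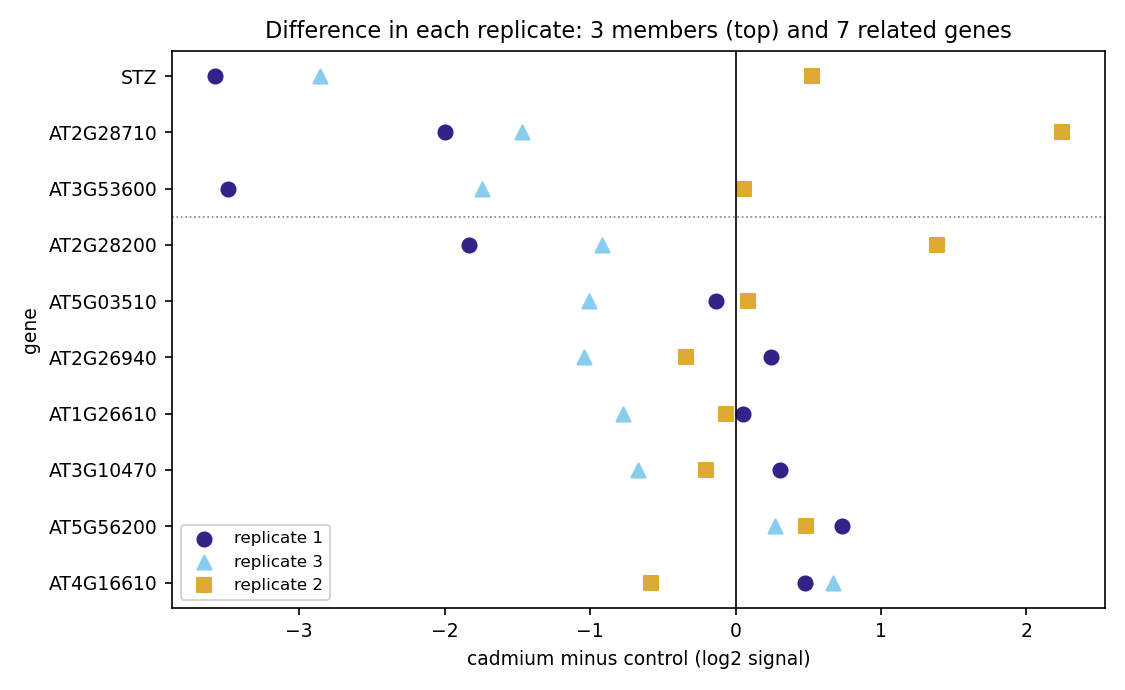
Cadmium minus control (log2 signal) in replicates 1 (circles), 3 (triangles) and 2 (squares) for the 3 zinc finger genes, above the dotted line, and 7 related C2H2 genes below it. The 3 genes have their circles and triangles at -1.47 or lower, whereas among the relatives only AT2G28200 has both under -0.9.

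Genes that act with STZ in early stress responses were mostly unnamed in the annotation used here. In it 8730 of 22746 probe sets have no gene, so an unnamed gene may still have a probe set. Of 13 corepressor genes and 12 genes of upstream kinases and oxidases, 0 were named here. Of 29 other early stress transcription factors 3 were tested, and within replicates 1 and 3 WRKY6 and WRKY53 fell while WRKY22 did not pass (log2 differences -3.67, -3.27 and -1.27, adjusted p = 0.00934, 0.0211 and 0.0705 in limma), where 3.24% of all tested probe sets fell. WRKY53, a regulator of leaf senescence and defence, did not pass without cadmium replicate 1 (adjusted p = 0.0679). Its pattern over the 6 arrays followed that of STZ at r = 0.99, WRKY22 at 0.94 and WRKY6 at 0.87.

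Among 13 antioxidant and oxidative stress genes 3 were tested within replicates 1 and 3. GR1, at -1.11, and AT2G21640, at 0.12, did not pass (adjusted p = 0.240 and 0.874 in limma). The remaining gene fell, as did 3.24% of all tested probe sets. This was NDB2, an external NADH dehydrogenase of mitochondria, at -2.53 ± 0.21 SE (adjusted p = 0.0128 in limma), which missed the threshold without cadmium replicate 3 (adjusted p = 0.0518). The only tested gene of 7 reported STZ targets and cold or jasmonate genes was the dehydrin COR47, at -1.04 ± 0.20 SE (adjusted p = 0.0558, with a range from 0.00332 with the replicate block to 0.239 over its alternatives). Of 14 genes of cadmium chelation and transport 0 were named. In the marker lists 0 of 2 root genes and 0 of 3 shoot genes passed, beside 4.53% of all tested probe sets. In limma XTH26 was at 4.83 ± 1.08 SE (adjusted p = 0.0778) and PORB at 0.92 ± 0.39 SE (adjusted p = 0.230). With signals under 62.0 raised to that value XTH26 was at 1.81 (adjusted p = 0.132). Its adjusted p was 0.0498 and 0.0206 without control replicates 1 and 3 and 0.278 and 0.547 without cadmium replicates 1 and 3. With the replicate number as a block both XTH26 and PORB passed (adjusted p = 0.0115 and 0.0161).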

How the data were processed

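MAS5 signals of 22810 probe sets on 6 arrays were deposited as linear intensity. The submitters' processing notes name MAS5 (version and scaling target not given in the sources used here). Groups and replicate numbers came from sample titles. The labels call the replicates biological, without naming separate cultures, so p-values measure the spread between arrays, whose number limits precision. The 64 control probe sets and those with a mean signal under the 30th percentile (73.0) were left out, leaving 15909. The 7 zero signals took the lowest positive value of their array. Fits on log2 signals used limma 3.58.1 in R 4.3.3 (eBayes with intensity trend, two-sided, Benjamini-Hochberg over all tested probe sets, threshold 0.05). They had 4 residual degrees of freedom over 6 arrays and 2 within replicates 1 and 3 and in the interaction fit. The fits were also run on simulated data with noise drawn separately for each array. Such data lack the shared scaling of replicate 2, so that run does not bear on the results here. An exact permutation test of 3 against 3 arrays cannot go below p = 0.1, so none was used. Of 22746 probe sets, 13513 had 1 gene in the annotation, 503 several and 8730 none; symbols were updated through the gene identifier to TAIR10.1 RefSeq. Members, 9 gene lists and the split by replicate were chosen with earlier results of these data known. Named genes are the members, up to 2 called each way per list (otherwise the widest difference) and the 5 most correlated with STZ.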

Additional observations from a re-analysis of the deposited data

Results flagged for a closer look

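The cadmium difference of replicate 2 differed from that of replicates 1 and 3 (limma interaction term past an adjusted p of 0.05) for 2 of the 3 zinc finger genes, STZ at 3.74 and AT2G28710 at 3.98, beside 8.93% of all tested probe sets. The same held for the related gene AT2G28200 at 2.76, and for NDB2 at 5.16, WRKY6 at 6.42 and WRKY53 at 4.31. In all of them the signal was lower on cadmium in replicates 1 and 3 and higher in replicate 2, as labelled. The contrast was set with the opposition of replicate 2 known and has 1 array of each group in replicate 2, so these values describe that opposition and are no independent test of it. Replicate numbers are not groups of the study, and no label says what a number stands for.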

How the results depend on the processing

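Within replicates 1 and 3, STZ was past the threshold as lower under 11 of 11 alternatives (log2 differences -3.53 to -2.91, highest adjusted p = 0.0301). AT2G28710 was lower under 11 of 11 (without 1 array, -2.17 to -1.30) and AT3G53600 under 11 of 11 (without 1 array, -4.15 to -1.08). For both genes each cadmium array lay below each control array, so leaving out 1 array could not change the sign. AT3G53600 had a lowest adjusted p of 0.212 in limma over its alternatives. It was at -0.42 with signals under 62.0 raised to that value. The count of 721 probe sets was 353 without the intensity trend and 142 to 1266 without 1 array, and median centring gave 122 higher and 627 lower in place of 205 and 516. The related C2H2 genes past the threshold were 1 in place of 0 without control replicate 3. Over all 6 arrays, array weights gave 1560 probe sets in place of 0, with STZ at -3.25, AT2G28710 at -1.60, AT3G53600 at -3.10 and 1 related gene past the threshold, and leaving out control replicate 1 gave 1. Without 1 or both arrays of a replicate, STZ ranged from -2.65 to -1.17, AT3G53600 from -3.05 to -0.29 and AT2G28710 from -1.24 to 0.39, reversed at 0.23, 0.39 and 0.12 without control replicate 1, replicate 1 and replicate 3. For replicate 2 minus the others, 1421 probe sets became 916 without the filter and 815 without the trend, where the related genes past the threshold were 0 in place of 1. The cause of these changes was not tested. Same-numbered arrays did not deviate together in every pair (r = 0.11, -0.04 and 0.29 for numbers 1, 2 and 3). Control replicate 1 correlated best with cadmium replicate 2 (r = 0.16). Among replicates 1 and 3 the same-numbered values were above the crossed ones, -0.36 (control 1, cadmium 3) and -0.10 (control 3, cadmium 1). The deviations were from group means that include replicate 2, so they do not settle whether replicates 1 and 3 are paired. No fit but the replicate block uses the numbers as pairs, and for replicates 1 and 3 the calls depend on that choice. With the replicate block, 3521 probe sets passed within replicates 1 and 3, among them AT2G28710 (-1.73, adjusted p = 0.00218) and 1 related gene, AT2G28200 (adjusted p = 0.0106), as well as COR47, XTH26 and PORB (adjusted p = 0.00332, 0.0115 and 0.0161), and 0 passed over all 6 arrays. Signals near or under 62.0 limit AT3G53600, and XTH26 passed the filter through its cadmium arrays.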
